A study of Mus musculus with 82 samples.

Results

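Lpin1 (gene ID 14245, mouse chromosome 12) was followed across liver RNA of BXD mice and of the parental strains of the BXD set. Its single probe was taken by gene symbol from the platform annotation, 1 of 21936 probes and 1 of 21915 features after probes of the same symbol were averaged. The gene was chosen by its measured difference between the parental strains, so that difference is described and not tested, whereas the values of the BXD strains come from other arrays.

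Lpin1 encodes a lipin, an enzyme that removes the phosphate from phosphatidic acid to give diacylglycerol, the precursor of triglycerides and of the main membrane phospholipids. The same protein also works in the nucleus, where it binds the nuclear receptor Ppara and its coactivator Ppargc1a and raises the expression of fatty acid oxidation genes. In liver the gene is known to be induced by fasting and by glucocorticoids, and mice that lack it (the fatty liver dystrophy strain) have a fatty liver as pups and little adipose tissue.

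The series holds 82 two-colour arrays, each giving 1 log ratio per probe between 2 RNAs. On 2 arrays RNA labelled as enriched (of what the labels do not say) from livers of the inbred strain C57BL6/J (B6) was set against that of the inbred strain DBA2/J (D2), 1 array per sex, and on 6 arrays plain B6 liver RNA was set against plain D2 liver RNA, 3 per sex. On 40 arrays of females and 32 of males, liver of 17 BXD strains was set against 1 common RNA, a mix from B6 embryos of day 17.5, and on 2 arrays liver of B6 males was set against the same mix. BXD strains are recombinant inbred lines from a cross of B6 and D2, in which each chromosome segment is fixed for the allele of 1 parent. The series text speaks of 18 BXD strains, of males, and of 3 unfasted mice of 10 to 20 weeks per strain. The labels hold 17 strains and both sexes, and they do not say whether an RNA was pooled. Neither time of day nor the genotype of each strain at Lpin1 was used here. Of the strains, 13 were measured with liver in both channels in both sexes, while BXD8, BXD9, BXD14 and BXD27 have 1 array per sex, with liver in channel 1.

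All values below are log2 ratios obtained from deposited values read as log10, a base that the sources do not state. The ratio was read as channel 2 over channel 1 and turned so that B6 stands over D2 and liver over embryo mix. Read that way, 12 hepatocyte genes had a higher median than 12 embryonic genes on 74 of 74 arrays against the mix (lowest hepatocyte median 3.56, highest embryonic median -1.62). In 32 pairs of arrays of the same RNA in both orientations, the deposited values correlated between -0.895 and -0.556 over all features. For Lpin1 the turned values of such a pair differed by a median of 0.22, by less than 0.5 in 25 of 32 pairs and by more than 1 in 3 pairs, all of females (BXD6, BXD21 and BXD31). One array of BXD11 females is titled as a dye swap while its channels name liver first, and it correlated at 0.846 with the array of that RNA with liver in channel 1, so it was used as its channels are named.

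The promoter of Lpin1 is shown because the gene's level differed between B6 and D2 and these bases stand directly before it. RefSeq places the start of Lpin1 on the minus strand of GRCm38.p6, and the stretch chr12:16610917-16611216 holds 250 bases before the start and 50 after it. The sequence is that of the reference genome, not of D2 or of any BXD strain. It reads 5′ to 3′ as follows, with 2 motif matches in capitals.
Lpin1 promoter: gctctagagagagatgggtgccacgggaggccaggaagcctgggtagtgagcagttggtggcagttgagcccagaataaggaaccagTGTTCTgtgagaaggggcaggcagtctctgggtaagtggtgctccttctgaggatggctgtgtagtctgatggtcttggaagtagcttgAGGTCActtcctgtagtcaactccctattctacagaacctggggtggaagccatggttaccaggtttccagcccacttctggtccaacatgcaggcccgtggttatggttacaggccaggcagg

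The first capitals, 163 bases before the start, are AGAACA on the opposite strand, a core motif of sites bound by the glucocorticoid receptor. The second, 74 bases before the start, are AGGTCA, the core motif of sites bound by nuclear receptors such as Ppara. On both strands, AGAACA occurred in 18.97% and AGGTCA in 16.26% of 32851 RefSeq promoters of the same length, so such matches are common and are given as letters only. The window held no match, on either strand, to the E-box CACGTG (in 7.15% of promoters), to the CCAAT box (37.41%), to the cAMP response motif TGACG (20.81%), to the sterol response core TCACNCCAC (1.242%) or to TATAAA (13.62%). No 2 of these motifs overlapped in the Lpin1 window.

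Lpin1 was higher in B6 liver than in D2 liver on all 8 arrays that set the parents against each other. With enriched RNA the log2 ratio of B6 over D2 was 1.14 in females (2.20-fold) and 2.69 in males (6.45-fold), 1 array each. With plain RNA it was 2.03, 1.98 and 2.15 in females and 2.37, 2.43 and 2.45 in males. The plain arrays spanned 1.98 to 2.45, and each of the 3 female values was below each of the 3 male values. The enriched female array alone lay outside that span on the low side, and the enriched male array lay above it.

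**Figure D1:**
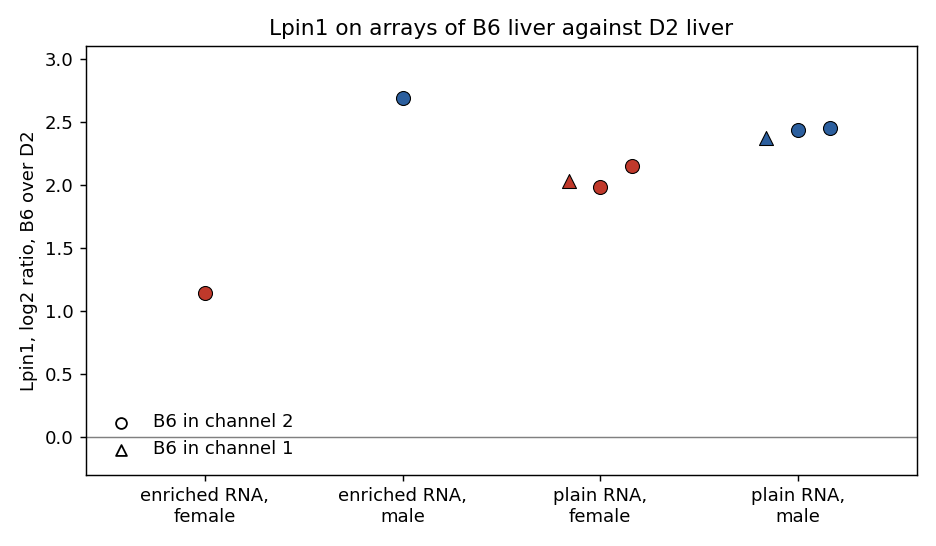
Log2 ratio of Lpin1 in B6 over D2 liver on each of 8 arrays, by RNA (enriched or plain) and sex; circles have B6 in channel 2 and triangles B6 in channel 1. The 6 plain arrays lie between 1.98 and 2.45, and the enriched female array, at 1.14, is the lowest of the 8.

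Counting the 2 orientations of replicate 1 as 1 value, B6 over D2 averaged 2.25 ± 0.21 (SD, n = 4 values, 2 per sex), a 4.76-fold difference. The female mean was 2.08 (4.22-fold) and the male mean 2.42 (5.37-fold), a female minus male difference of -0.35. By size this difference ranked 3rd of 3439 named features and 7th of all 21915. Of all features, 20 (0.0913%) were called higher in B6 and 19 (0.0867%) lower, 0.178% in either direction, at an adjusted p under 0.05 (limma, Benjamini-Hochberg), and the choice of Lpin1 used this contrast. Each orientation gave the same direction for Lpin1, with B6 in channel 1 or in channel 2. Over all features the 2 orientations of the plain arrays correlated as deposited at only -0.133 in females and 0.0187 in males, so the reading of these arrays rests on the direction found on the arrays against the mix. Against the plain arrays of the same orientation, the enriched value differed by -0.93 in females and by 0.25 in males, without replicates.

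The embryo mix links the parents to the BXD strains. B6 males over the mix gave 2.59 and 2.95 for Lpin1 on 2 arrays of the same RNA, with a mean of 2.77 (6.83-fold). D2 liver was not set against the mix, and subtracting the male difference of B6 over D2 puts D2 males at 0.35. The midpoint between both parents is then 1.56. This scale is for males, since no B6 female array against the mix was used here.

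Among males of the 13 strains measured in both orientations, Lpin1 was above the mix in every strain. BXD5 was highest at 3.30, followed by BXD2 at 2.83, BXD31 at 2.77, BXD32 at 2.69 and BXD6 at 2.51. BXD18 (2.23), BXD21 (2.16), BXD16 (2.09), BXD19 (2.05) and BXD11 (1.83) were in the middle, and BXD15 (1.63), BXD12 (1.62) and BXD28 (1.18) were lowest. The values ran down without a break, the widest step between neighbours being 0.47, from BXD5 to BXD2. All neighbours in this order differed by less than the SD of 0.70 between RNAs of the same strain and sex. That SD comes from 11 RNAs in 5 groups, of which BXD6 males are the only male group. The RNAs of a group lay in different runs (stretches of consecutively numbered arrays), so spread between RNAs and between runs cannot be told apart. Steps between 13 ordered values are small in any case, so they do not say whether the strains differ. The mean was 2.22 ± 0.59 (SD, n = 13 strains). Of these 13 males, 12 lay above the midpoint of the parents and 1 (BXD28) below it. None lay below the D2 value, and 2 (BXD5 and BXD2) lay above the B6 value. These counts are loose, since the midpoint (1.56) and the D2 value rest on 1 B6 RNA, whose 2 arrays gave 2.59 and 2.95. BXD15 (1.63) and BXD12 (1.62) lay just above the midpoint, and BXD2 (2.83) just above the B6 value (2.77). The range of the 13 males was 2.12, placed toward the B6 end of that scale. A range of 13 values also holds the spread between RNAs, so its size is not comparable with the parental difference in males of 2.42.

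Females of the same strains were lower and more spread. BXD6 was highest at 2.67, followed by BXD32 at 2.37, BXD21 at 1.99 and BXD11 and BXD2, both at 1.42. BXD15 (1.07), BXD31 (0.83), BXD19 (0.70), BXD18 (0.61) and BXD5 (0.53) followed, then BXD12 (0.07) and BXD16 (-0.05), both near the level of the embryo mix. BXD28 stood lowest at -1.43, a step of 1.39 below BXD16, and both of its arrays were that low (-1.40 and -1.47). The mean was 0.94 ± 1.09 (SD, n = 13 strains), and the range was 4.10.

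**Figure D2:**
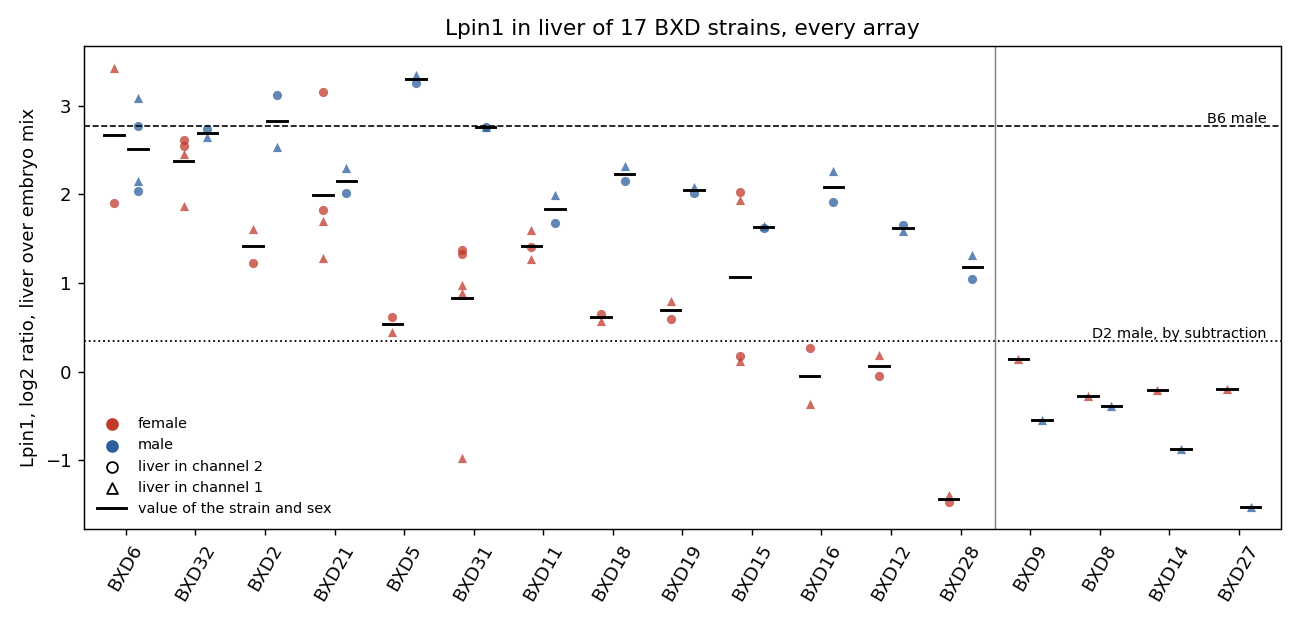
Log2 ratio of Lpin1 in liver over embryo mix on every BXD array, females left of males within each strain, triangles with liver in channel 1 and circles with liver in channel 2; black bars are the value of each strain and sex, and the lines mark B6 males (2.77) and D2 males by subtraction (0.35). Strains left of the vertical line have both orientations, and the 4 to its right have 1 array per sex with liver in channel 1, with all of their values at 0.14 or below.

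RNAs of the same strain and sex were not always close. The 2 RNAs of BXD15 females gave 1.98 and 0.15, those of BXD21 females 1.56 and 2.43 and those of BXD6 males 2.93 and 2.10. The 3 RNAs of BXD31 females gave 1.11, 0.20 and 0.98, and only the 2 RNAs of BXD32 females lay close together, at 2.50 and 2.25. The spread between RNAs of BXD15 females, 1.83, was nearly as wide as the whole range of the 13 males. Since the RNAs of a group lay in different runs, these gaps also hold any difference between runs.

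Differences of any kind among the 13 strains were tested, with both sexes as the only repeat of a strain. The test uses neither genotypes at Lpin1 nor parental values, so it cannot say whether the parental difference returned. Strain means ran from 2.59 in BXD6 and 2.53 in BXD32 to 0.84 in BXD12 and -0.12 in BXD28, a 6.56-fold range, with an SD over 13 strains of 0.74. The residual SD of single values was 0.67, which is not on the scale of the strain means, since each mean averages both sexes. The moderated F was 2.98 (unadjusted p = 0.0243, adjusted p = 0.293, limma over 26 values), so strain differences of Lpin1 did not pass the threshold. Of all features, 262 (1.20%) passed it, and 3016 had an unadjusted p under 0.05. The SD of Lpin1 over strains was larger than that of 99.8% of features, and its residual SD than that of 99.6%. The residual is what the strain terms and the mean sex difference leave, and it also holds any difference between RNAs or runs. A wide spread of strain means thus stood beside a wide residual spread, and the SD over strains alone does not show strain differences. Lpin1 ranked 14th of the named features by SD over strains and 367th by F.

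Males of BXD8, BXD9, BXD14 and BXD27 were far below the other strains. They gave -0.39, -0.55, -0.87 and -1.53, all 4 below the D2 value of 0.35. On arrays with liver in channel 1, these 4 males ranged from -1.53 to -0.39 (median -0.71), against 1.32 to 3.34 (median 2.28) on 14 arrays of males of the other 13 strains, with no overlap. Of all features, 1.16% were lower and 1.36% higher without overlap in this way, 2.52% in either direction. In females the groups overlapped, with -0.27 (BXD8), 0.14 (BXD9), -0.21 (BXD14) and -0.19 (BXD27) against -1.40 to 3.43 (median 0.98) on 19 arrays of the 13 strains, and 1.54% of all features had no overlap there.

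The arrays of these 4 strains lie in 2 runs of consecutively numbered arrays that hold no other BXD strain, and strain and run cannot be told apart there. The whole profiles of their males correlated at 0.791 to 0.886 with the mean of the 13 strains, against 0.859 to 0.972 for males of the 13 strains, each set against the mean of the others. For females the ranges were 0.842 to 0.885 and 0.814 to 0.947, so the ranges overlapped in both sexes. The part of the Lpin1 value shared by arrays of 1 orientation averaged 0.05 over the strains with both, where single pairs differed by up to 2.35. The 4 strains have no swapped arrays, so the part of the channel in their values was not tested. Fitted over all 17 strains, Lpin1 passed the threshold (SD 1.11, adjusted p = 0.0183, limma), but so did 25.5% of all features.

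Lpin1 was lower in females than in males of the BXD set. Over 17 strains it averaged 0.69 ± 1.06 in females and 1.50 ± 1.45 in males (SD), and the difference with strain as a block was -0.82 (SE 0.27, 95% interval -1.39 to -0.25, adjusted p = 0.0256, limma over 34 values), 1.76-fold lower in females. The sex difference was negative in 12 of 17 strains. Of all features, 33.7% passed this test, 16.5% higher and 17.2% lower in females, so a call is no mark of Lpin1. Without BXD5, where the difference was widest, it was -0.70 with an adjusted p of 0.0531 (limma).

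The sign of the difference was not the same in both sets of strains. In the 13 strains with both orientations it averaged -1.28 ± 0.95 (SD), negative in 12 of 13, from -2.77 in BXD5 and -2.62 in BXD28 to 0.15 in BXD6. In the 4 strains with liver in channel 1 only it averaged 0.70 ± 0.50 (SD), positive in 4 of 4, from 0.12 in BXD8 to 1.34 in BXD27. The females of both sets lay closer to each other than the males did, and the difference between the sets was not tested. The arrays of the parents against each other compare strains within a sex and give no level of females against males.

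**Figure D3:**
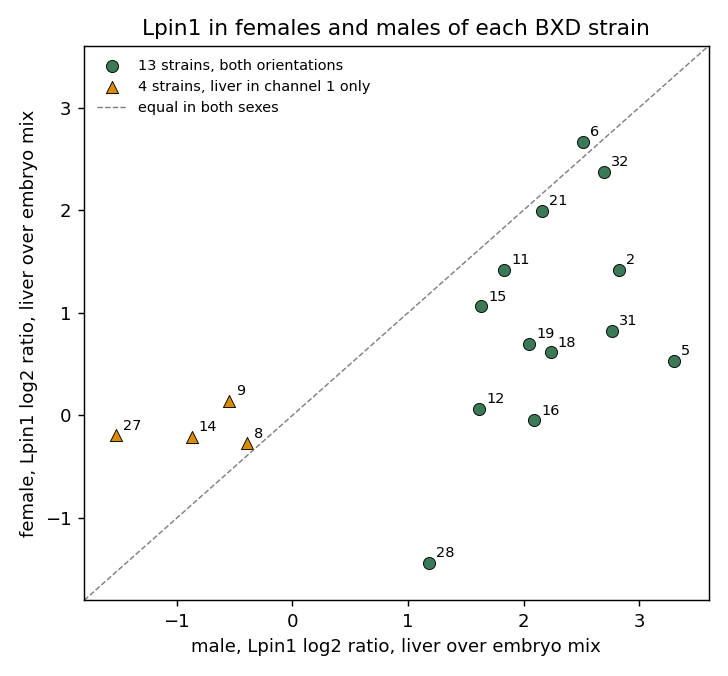
Female (vertical) against male (horizontal) log2 ratio of Lpin1 in liver over embryo mix, 1 point per BXD strain labelled by strain number, with a dashed line where both sexes are equal. Of the 13 strains with both orientations (circles), 12 lie below the line, and the 4 strains with liver in channel 1 only (triangles) lie above it and left of 0.

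Sex and run of arrays (a stretch of consecutively numbered arrays, which the labels do not call a batch) were tied in most strains. None of the 13 strains with both orientations (0 of 13) had females and males in the same run, and all of the others (4 of 4) did. With 1 value per strain, sex and run and with run as a term, the female minus male difference was 0.27 (adjusted p = 0.601, limma), while 21.4% of all features still passed. Within the 5 runs that hold both sexes it was -0.99, -2.23, -0.86, 0.49 and 1.34, negative in 3 and positive in 2, with a mean of -0.45. In the 3 negative runs the females and the males came from different strains, and both positive runs hold the same strains in both sexes. The lower level in females was thus not seen where females and males of 1 strain stood in 1 run, and in the 13 strains sex and run cannot be told apart within a strain.

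**Figure D4:**
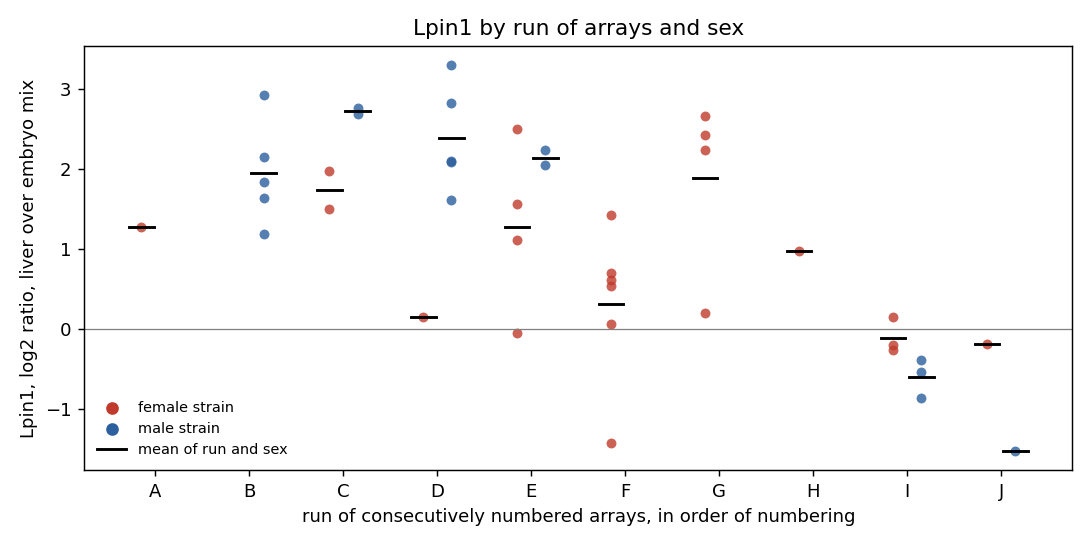
Log2 ratio of Lpin1 in liver over embryo mix by run of consecutively numbered arrays (A to J, in order of numbering), 1 point per strain and run, females left of males, with bars at the mean of each run and sex. Females lie below males in runs C, D and E and above them in runs I and J, and the other 5 runs hold 1 sex.

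The relation of the Lpin1 levels of females and males of a strain did not pass a test over 13 strains. Females and males correlated at r = 0.49 over 13 strains (permutation p = 0.0854, adjusted 0.171) and rho = 0.37 (permutation p = 0.217, adjusted 0.217), with 2 coefficients in the family. Without BXD5 and BXD28, the 2 strains farthest from the male median, r was 0.46 (permutation p = 0.152). Without BXD5 alone it was 0.67 (permutation p = 0.0157), and without BXD28 alone it was 0.23 (permutation p = 0.474). Over all 17 strains the males fall into 2 separate clusters, so the pooled value first planned is given only among the alternatives.

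Adult liver of the 13 strains held more Lpin1 RNA than the embryo mix. Over the 13 strains the ratio averaged 1.58 ± 0.74 (SD), 2.99-fold (adjusted p = 7.17e-07, limma), and 12 of 13 strain means were above 0. The other 4 strains all had means below 0 (mean -0.48), so that 5 of 17 were below the mix, and over 17 strains the ratio was 1.10 (adjusted p = 0.000522, limma). Of all features, 4.69% were called higher and 9.17% lower in liver, where a call also needed a log2 ratio of 1 or more in size. Of the 12 hepatocyte genes measured, 11 were called higher in liver, among them Pon1, an esterase secreted by liver, at 4.67. The muscle genes Tnnc2 and Tnnt3, which encode troponin subunits of fast muscle, were at -5.13 and -3.81, lower in liver than in the mix, and muscle is known to express Lpin1 too. In whole tissue, fewer cells of a type and less RNA per cell cannot be told apart, and the mix is 1 RNA whose own spread is outside the test. In females alone the ratio was 0.94, under the size required for a call.

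The other measured genes of the phosphatidate step did not follow Lpin1. Lpin2 and Lpin3, the sister lipins, have no probe with their name here. Plpp1 and Plpp2, membrane phosphatases of lipid phosphates, differed between B6 and D2 by 0.05 and -0.13, and neither was called there or among strains. Plpp1 was higher in females by 0.29 (adjusted p = 0.000750, limma). This and all further sex differences come from the fit without run as a term. In the 13 strains with both orientations, sex and run cannot be told apart within a strain. The correlations of Plpp1 and Plpp2 with Lpin1 were -0.21 and -0.26, over 26 values of 13 strains centred within each sex. These and all further correlations are descriptions, since the values share the embryo mix and both sexes of a strain.

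Across 8 lists of lipid metabolism, its regulators and the fasting response, none of 47 measured genes was called between B6 and D2 (limma), and 15 had an unadjusted p under 0.05. Over all features 0.178% were called and 13.2% had an unadjusted p under 0.05, so a count of 0 is near the background. The 15 are a larger share than 13.2%, in lists chosen with earlier results of these data known, and the excess was not tested. The median difference was -0.03, against 0.01 over all features. Among strains 3 of 47 were called, against 1.20% of all features, and 18 had an unadjusted p under 0.05, against 13.8% (limma). Ppargc1a, the coactivator partner of Lpin1, had an SD over strains of 0.71 (adjusted p = 0.00473, limma). G0s2, an inhibitor of the lipase that opens triglyceride breakdown, had one of 1.07 (adjusted p = 0.0320), and Gpd1, which makes glycerol 3-phosphate, one of 0.48 (adjusted p = 0.0166). Their correlations with Lpin1 were 0.52, -0.08 and -0.37. By sex, 11 of 47 were called higher and 3 lower in females, against 16.5% and 17.2% of all features.

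Among genes of glycerolipid and phospholipid synthesis (9 measured), 1 was called by sex, where 33.7% of all features were: Pemt, which methylates phosphatidylethanolamine, was 0.54 higher in females (adjusted p = 0.000722, limma). Of 7 genes of triglyceride storage, G0s2 was higher in females by 0.95 and Bscl2, which encodes seipin of the lipid droplet, was lower (-0.33). Of 10 regulators, Pparg (0.33), Esrra (0.31) and Hdac3 (0.16) were higher in females, the first a nuclear receptor of fat storage, the second one of mitochondrial genes and the third a histone deacetylase. Ppara was not called by sex, among strains or between the parents (B6 over D2 -0.72, adjusted p = 0.209, limma), and Nr3c1, the glucocorticoid receptor, has no probe with its name here.

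Targets of Ppara and genes of fatty acid oxidation (5 measured) included 3 called higher and 1 called lower in females, against 16.5% and 17.2% of all features. Pdk4, a kinase that slows glucose oxidation, was higher in females by 0.80, Vnn1, a pantetheinase, by 0.78 and Cyp4a14, a fatty acid hydroxylase, by 0.49. The correlations of the 5 with Lpin1 all lay above 0, from 0.09 to 0.55. None of the 5 was called among strains, where 2 had an unadjusted p under 0.05 (limma), against 13.8% of all features.

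The 7 measured genes of the fasting and glucocorticoid response all correlated positively with Lpin1 across strains. The correlations ran from 0.15 for Gadd45b, a stress-induced gene, to 0.80 for Cebpb, a transcription factor of the liver's fasting and acute phase programmes, with a median of 0.51, against 0.02 over 3417 named features. Of the 7, 1 was called by sex, against 33.7% of all features: Gadd45b was 1.17 higher in females (adjusted p = 6.69e-05, limma). None of the 7 was called among strains, where 3 had an unadjusted p under 0.05 (limma), against 13.8% of all features. Between B6 and D2 none was called, and 4 had an unadjusted p under 0.05 (limma), against 13.2% of all features. Their median there was -0.31, on the other side of 0 from Lpin1. Whether feeding or time of day at collection moved with Lpin1 was not tested, since the labels give neither per array.

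Acute phase genes (6 measured) had a median correlation with Lpin1 of -0.50, the lowest of the 11 lists plotted, with a range of -0.58 to 0.35. Apcs, a pentraxin of mouse plasma, was the only gene of these lists called between the parents, where 0.178% of all features were. It was at -3.14 (lower in B6, adjusted p = 0.00548, limma), and it was also called among strains (adjusted p = 0.0282, limma). By sex, Apcs (0.92), Fgl1 (0.68) and Cp (0.36) were called higher in females, where 16.5% of all features were. Of 10 clock genes measured, 1 was called by sex (Per3, a period gene, -0.23), against 33.7% of all features. Clock genes had a median correlation of 0.14, from -0.31 to 0.56. The 3 measured genes of fatty acid synthesis had a median of 0.08 and the 4 of cholesterol synthesis and uptake one of -0.19. Scd2, a desaturase, was lower in females (-0.38) and Cyp51, a sterol demethylase, higher by 0.46.

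**Figure D5:**
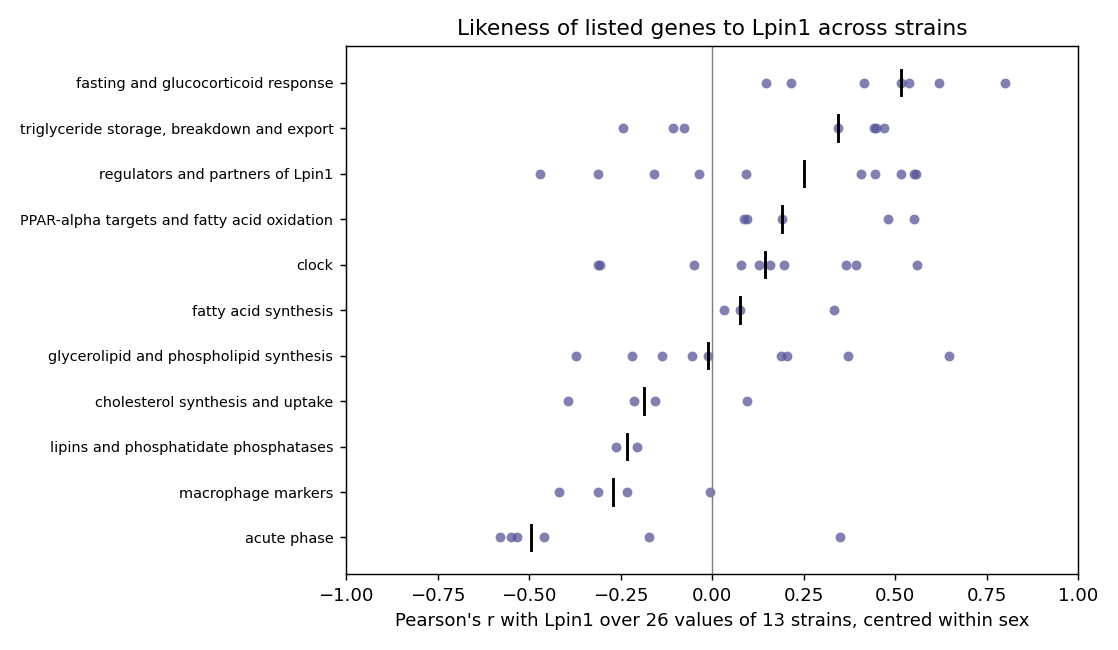
Pearson's r with Lpin1 (horizontal) for each measured gene of 11 lists, over 26 values of 13 strains centred within sex; each point is 1 gene and the bar is the median of its list. All 7 genes of the fasting and glucocorticoid response lie above 0 (median 0.51), and 5 of 6 acute phase genes lie below it (median -0.50).

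Markers of other cell types were set beside Lpin1 in the same way. Across strains, 4 macrophage markers correlated with it at -0.42 to -0.01, 4 endothelial markers at -0.22 to 0.26, 4 stellate cell and fibroblast markers at -0.55 (Lrat, of stellate cells) to 0.31 and 5 lymphocyte markers at -0.33 to 0.14. The adipose markers Cfd and Lep were at 0.11 and -0.26. By sex, 2 of 4 macrophage markers (C1qb, 0.37, and C1qa, 0.35) and 2 of 4 stellate cell and fibroblast markers (Lum, 0.27, and Lrat, 0.26) were called higher in females. So were 2 of 5 lymphocyte markers and 1 of 2 adipose markers (Cfd, 0.38), and none of these lists had a member called lower. Of all features, 16.5% were called higher and 17.2% lower in females. Hepatocyte markers had 4 of 12 called higher and 0 lower as well, so this direction is no mark of the other cell types. Of 4 endothelial markers, Tek was higher (0.33) and Tie1 (-0.26) and Flt4 (-0.12) were lower. The part of these cell types in the differences of Lpin1 was not tested.

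The genes whose pattern over strains was most like that of Lpin1 were Cebpb (r = 0.80), Map2k5, a kinase of the MAP kinase cascade (0.74), Golga3, a Golgi protein (0.72), and Ulk2, a kinase of autophagy (0.72). Mbd1, a protein that binds methylated DNA (0.69), Papss1, which makes the sulfate donor (0.69), Paf1, a factor of transcription elongation (0.68), and Dnajc4, a chaperone partner (0.68), came next. The most opposite were Zfp638, a zinc finger protein (-0.74), Exosc9, a subunit of the RNA exosome (-0.73), Ppp1cc, a phosphatase subunit (-0.72), and Tmem165, a Golgi membrane protein (-0.72). Of 3417 candidates, 2.78% reached an absolute r of 0.6. The order was loose: of these 12 genes, 2 were among the first 8 or last 4 with males alone, 3 with females alone and 0 with the means of 17 strains. Over those means the correlations of Map2k5 (-0.28), Papss1 (-0.51) and Paf1 (-0.05) changed sign, and the rest of the 12 kept theirs. None of the 12 was called between B6 and D2 or among strains, where 0.178% and 1.20% of all features were, so a count of 0 is near the background.

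On chromosome 12, 2 of the 30 genes nearest to Lpin1 (15 on each side, in RefSeq order) were measured under a name. Greb1, an estrogen-induced gene 2 genes away, was 0.28 in B6 over D2 (adjusted p = 0.437, limma). It was not called among strains, and its correlation with Lpin1 was -0.04, so it had no parental difference of the size seen for Lpin1.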

How the data were processed

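The authors deposited a single value per probe and array, taken here as a log10 ratio of both channels and multiplied to log2. The labels state no unit, and the reading rests on 94 values that equal 2 or -2 exactly, a 100-fold limit. Scanner, background correction and normalization are not stated in the labels. Array medians lay between -0.08 and 0.12 (log2). Signal intensity, and so what was above background, is unknown, and precision rests on the number of arrays. Of the probes, 3290 had 1 symbol in the platform annotation, 4 had several, 170 were named by accession through RefSeq (GRCm38.p6) and 18476 stayed unnamed. No column was left out.

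Arrays were averaged within orientation and then across orientations, to 1 value per strain and sex. limma 3.58.1 (R 4.3.3) tested all 21915 features, with p-values adjusted by Benjamini-Hochberg and a threshold of 0.05, after a test on simulated data. Correlations used 100000 permutations. Nothing says that RNAs came from separate animals. RNAs of a strain and sex were averaged before the main fits, so p-values do not measure the spread between them. The sex test used the spread of sex differences over strains, and the strain test what strain and sex terms left. The test against the mix used the spread of strain means.

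Lpin1 and the gene lists were chosen with earlier results of these data known. Genes named are Lpin1, the 8 most like and the 4 least like it, the measured neighbours, up to 4 called members per list and Lpin2, Lpin3, Ppara, Ppargc1a and Nr3c1. Pon1, Tnnc2 and Tnnt3, Plpp2, and Lep were named after their values were seen. The correlation of the sexes was planned over 17 strains and is given over 13, because the males fell into separate clusters. Replicate numbers of the parental arrays and of the BXD groups were taken to name separate RNAs, which the labels do not state. For the parental arrays the labels also say nothing of a shared litter or day. Alternatives were other scalings, orientations, strain sets, runs, replicate blocks and each strain or replicate left out. One neighbour and one list member are not reported here.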

Additional observations from a re-analysis of the deposited data

Results flagged for a closer look

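One array of BXD31 females, that of replicate 2 with liver in channel 1, gave -0.97 for Lpin1, while the other 4 arrays of that strain and sex gave 0.89 to 1.38. It was singled out by Dixon's test, which picks about 1 in 20 groups by chance. The array of the same RNA in the other orientation gave 1.38.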

How the results depend on the processing

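Lpin1 in B6 over D2 was 2.08 to 2.43 over 14 alternatives, and 2.25 in the 1 with a replicate block. Lpin1 was chosen by this difference and all plain arrays had the same sign, so the kept direction is no support. Among strains Lpin1 did not pass the threshold in 24 of 25 tested alternatives, the exception being all 17 strains (SD 1.11, adjusted p = 0.0183, limma). With the replicate block its SD over strains was 0.73 (adjusted p = 0.169) and the sex difference -0.75 (adjusted p = 0.0301). The sex difference kept its call in 27 of 29 tested alternatives. It was -0.951 to -0.695 with a strain left out, losing the call without BXD5, and 0.27 with run as a term, where direction turned and the cause was not tested. Liver over embryo mix was 0.938 in females alone, under the size required. The correlation of the sexes was 0.566 over the 17 strains first planned, which hold 2 clusters (permutation p = 0.0177, rho 0.652 with permutation p = 0.00589), and 0.229 to 0.670 with a strain left out. The 12 most and least like genes shared 0, 2 and 3 members with those from 17 strain means, males and females. Counts of features moved more. Among strains, 262 became 164 and 101 with liver in channel 1 or 2 only, 862 with the replicate block, 767 with run as a term (added after seeing the data), 5589 with 17 strains and 139 to 278 with a strain left out. By sex, 7381 became 4695 with run as a term. For B6 against D2, 39 became 77 with arrays scaled, 24 with quantile normalization, 623 and 683 with B6 in channel 1 or 2 only, 70 without the dye component, 9 with the replicate block, 510 with enriched arrays added, 0 to 29 with a replicate left out, and 0 in males and 0 in females alone (limma, unadjusted p under 0.05 in 1261 and 2527). The replicate block was run for these Lpin1 results and counts only, and changed no call of Lpin1. The correlation between sexes of replicate 1 minus 2 was 0.32. Signal over background is unknown.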
